A study of Rattus norvegicus with 7 samples.

Results

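In all, 10 genes of bone morphogenetic protein (BMP) and transforming growth factor beta (TGF-beta) signalling were followed across cultured rat oligodendrocyte progenitor cells that had been given an siRNA against an endogenous retroviral sequence or a control siRNA. They were the ligand genes Bmp4, Bmp7, Tgfb1, Tgfb2 and Inhba, the receptor genes Bmpr1a and Tgfbr1, and the signal transducer genes Smad1, Smad6 and Smad7, chosen by gene symbol. Each symbol matched 1 row, so the set holds 10 of the 32852 genes listed. All 10 passed the filter of a mean normalised count of at least 10 and were tested.

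The cells came from brains of wild-type rats at postnatal day 7, and the labels give no strain. In the siRNLTR12-int group (3 libraries) the siRNA was directed at RNLTR12-int, and the control group (4 libraries) received a control siRNA. Both groups were switched to differentiating medium when they were transfected with Lipofectamine RNAiMAX and stayed in it for 4 to 5 days. The RNAs were depleted of ribosomal RNA and sequenced as directional paired-end libraries. The level of RNLTR12-int was not analysed here and its knockdown could not be checked, and no animal, culture or day is named for any library, so the p-values speak for the scatter among these libraries, part of which may be technical.

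BMPs, TGF-betas and activins are secreted dimers that bring together type I and type II receptor serine/threonine kinases at the cell surface. BMP receptors phosphorylate Smad1, Smad5 and Smad9, TGF-beta and activin receptors phosphorylate Smad2 and Smad3, and both kinds enter the nucleus with Smad4. Smad6 and Smad7 are inhibitory Smads that are themselves induced by the pathway and act as negative feedback. In cultured oligodendrocyte progenitors BMP signalling is known for holding back differentiation and favouring astrocyte features, while TGF-beta and activin signalling have been linked to progenitor maturation.

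Recovered reads numbered 31609908 to 48187822 in the siRNLTR12-int libraries and 22523873 to 61803693 in the controls. All 12 oligodendrocyte lineage markers on the list were above 0 in every library, with summed normalised counts of 162350 to 270986 in siRNLTR12-int libraries and 250687 to 977515 in controls, and the highest sum was in control replicate 2. The 10 astrocyte markers were also above 0 throughout. Their sums set 3 libraries (siRNLTR12-int replicate 1 at 640492, control replicates 1 and 2 at 578993 and 517694) apart from the other 4 (131899 to 153384). Gfap, the intermediate filament gene of astrocytes, had 306397, 19440 and 20478 normalised counts in siRNLTR12-int replicates 1 to 3, against 262591, 224537, 27204 and 44392 in control replicates 1 to 4. The 9 microglia markers in the table summed to 15922 in siRNLTR12-int replicate 1 and 13868 in control replicate 1, against 1618 to 4698 elsewhere. The 10 neuron markers summed to 29023 to 35581 in siRNLTR12-int libraries and 27277 to 33771 in controls. In bulk RNA, fewer cells of a type and less RNA per cell cannot be told apart.

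None of the 10 genes separated the siRNA groups across all 7 libraries, although Bmp4, Bmp7, Smad6 and Smad7 differed by more than 1.5-fold on the fitted scale. With limma 0 of 10 were called at an adjusted p under 0.05, where 0% of 18225 genes were called in either direction. In the authors' deposited table none of the 10 was called (0.752% of genes were). The groups overlapped in all 10. Over all genes tested 7.68% had groups that did not overlap, so having none among 10 is near that share. At an unadjusted p under 0.05, limma counted 0 of 10 (background 6.3%), and the authors' deposited table counted 2, Bmp7 and Smad6 (background 5.19%). Negative log2 differences, taken as siRNLTR12-int minus control on log2(normalised count + 1), were found in 6 genes and positive ones in 4, with a median of -0.36 against 0.01 over all genes tested.

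**Figure D1:**
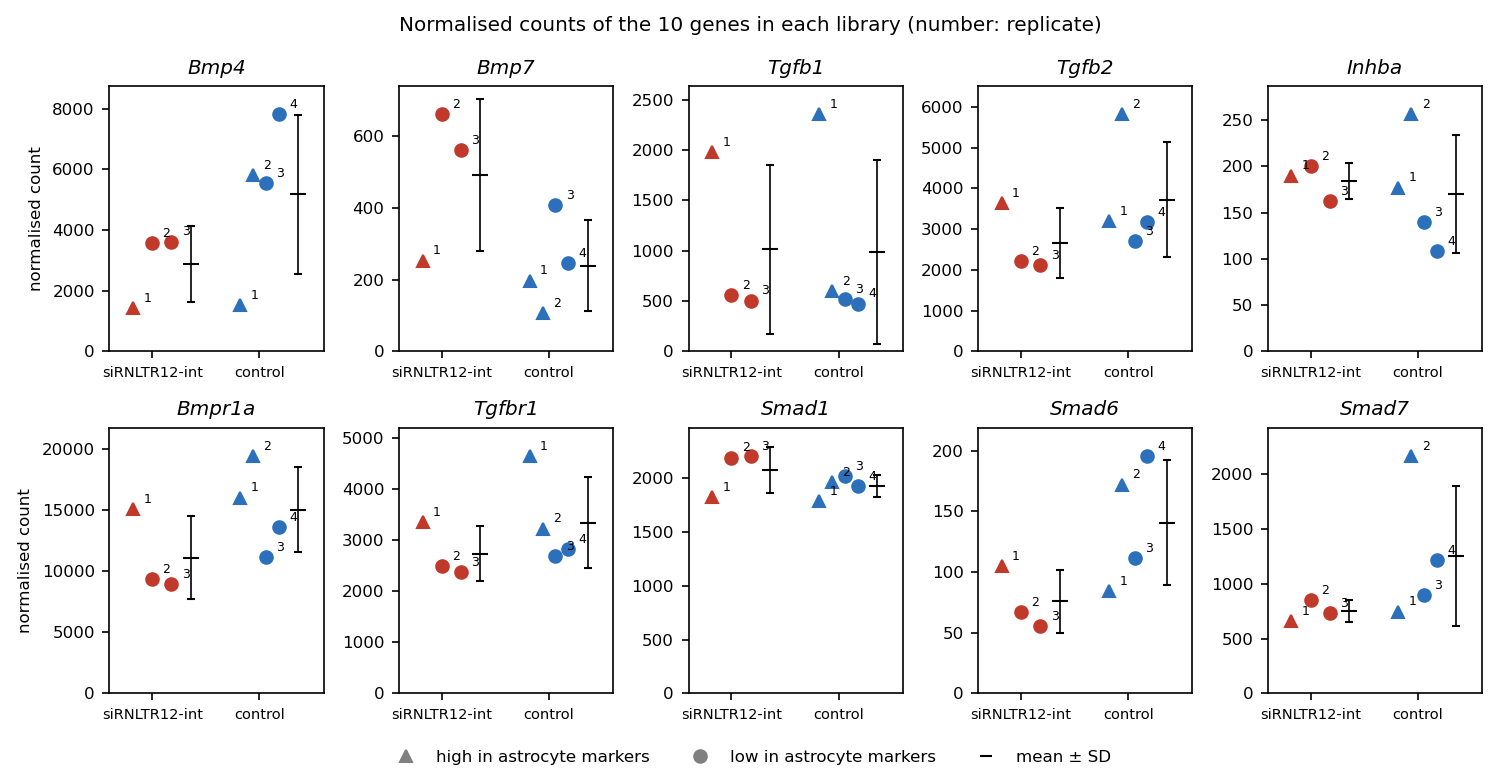
Normalised counts (linear axes from 0) of the 10 genes in the 3 siRNLTR12-int and 4 control libraries, numbered by replicate, with triangles for the 3 libraries high in astrocyte markers, circles for the 4 low ones, and mean ± SD at the right of each group. In every panel at least 1 siRNLTR12-int library lies within the control range or the reverse, and Tgfb1 is high in replicate 1 of both groups.

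Bmp4, a secreted BMP that progenitors themselves can make, had 1432, 3572 and 3622 normalised counts in siRNLTR12-int replicates 1 to 3, against 1538, 5812, 5543 and 7811 in control replicates 1 to 4. The lowest control, replicate 1, lay below siRNLTR12-int replicates 2 and 3, and replicate 1 was the lowest library of its group in both groups. Means were 2875 ± 1251 (SD, n = 3) in siRNLTR12-int libraries and 5176 ± 2628 (SD, n = 4) in controls. The log2 difference was -0.75 with a standard error of 0.60 (limma adjusted p = 0.937), a ratio of 0.597. Sox10, a transcription factor of the oligodendrocyte lineage, was low in the same pair of libraries, at 8037 in siRNLTR12-int replicate 1 and 8318 in control replicate 1, against 27505 to 38713 in the others. Mbp, the gene of myelin basic protein, was laid out differently, with 32168, 18730 and 15076 normalised counts in siRNLTR12-int replicates 1 to 3, against 80170, 401821, 78977 and 109426 in control replicates 1 to 4. Its groups did not overlap (log2 -2.63, limma adjusted p = 0.647), and replicate 1 was the highest siRNLTR12-int library and not the lowest control. Whether lineage content has a part in the spread of Bmp4 was not tested.

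The start region of Bmp4 is shown because its transcript was lower in siRNLTR12-int than in control libraries on both sides of the astrocyte split described further on. Bmpr1a and Smad7 shared this, and over all 7 libraries the groups of Bmp4 overlapped. The window runs from 250 bases before to 50 bases after the gene start and comes from RefSeq on GRCr8 (chr15:22101884-22102183, minus strand), a later assembly than the Rnor_6.0 build named in the submitters' processing notes. It was searched on both strands for 3 motifs known from Smad binding studies, the palindrome GTCTAGAC, the GC-rich element GGCGCC and the BMP response element GCCGNCGC, and held none of them.
Bmp4: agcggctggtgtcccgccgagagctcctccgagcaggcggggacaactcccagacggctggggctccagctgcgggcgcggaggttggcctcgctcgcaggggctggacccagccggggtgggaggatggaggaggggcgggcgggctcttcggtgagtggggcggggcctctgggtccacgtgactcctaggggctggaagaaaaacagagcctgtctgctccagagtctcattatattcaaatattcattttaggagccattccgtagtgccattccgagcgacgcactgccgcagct

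Bmp7, a BMP of a different subgroup that can pair with Bmp4 in heterodimers, went the other way. It had 253, 661 and 562 normalised counts in siRNLTR12-int replicates 1 to 3, against 197, 106, 408 and 247 in control replicates 1 to 4. Replicates 2 and 3 of the siRNLTR12-int group were above every control, and replicate 1 lay inside the control range, just above control replicate 4. Means were 492 ± 213 (SD, n = 3) in siRNLTR12-int libraries and 239 ± 126 (SD, n = 4) in controls, a log2 difference of 1.08 with a standard error of 0.51 (limma adjusted p = 0.828). The ratio of 2.12 was the largest of the 10. In the authors' deposited table the log2 fold change was 1.04 (DESeq2 adjusted p = 0.627).

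Tgfb1, the TGF-beta made in quantity by microglia and macrophages, differed between libraries far more than between groups. It stood at 1981, 557 and 505 normalised counts in siRNLTR12-int replicates 1 to 3 and at 2352, 602, 519 and 475 in control replicates 1 to 4. The 2 high values were replicate 1 of each group, and the other 5 libraries spanned 475 to 602. These were also the 2 libraries with the highest microglia marker sums. Aif1, a microglial calcium-binding protein, had 160 normalised counts in siRNLTR12-int replicate 1 and 140 in control replicate 1, against 24.1 to 64.6 in the others. The log2 difference of Tgfb1 was 0.10 with a standard error of 0.70 (limma adjusted p = 0.998), and the part of microglial RNA in its spread was not tested. Its sign turned without siRNLTR12-int replicate 1 (-0.54) and without control replicates 2, 3 or 4 (-0.02, -0.09 and -0.13).

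Tgfb2, the TGF-beta of glia and developing tissues, had 3637, 2215 and 2116 normalised counts in siRNLTR12-int replicates 1 to 3, against 3193, 5812, 2710 and 3179 in control replicates 1 to 4. Control replicate 2, the library with the highest oligodendrocyte lineage marker sum, stood far above the other controls. Sox10 in that library (29794) was below control replicates 3 and 4 (31034 and 38713). Within each group Tgfb2 was higher in the libraries rich in astrocyte markers, though control replicate 1 barely exceeded control replicate 4 (3193 against 3179). The part of either cell type in this was not tested. On the low side of the astrocyte split both siRNLTR12-int libraries were below both controls. Over all libraries the log2 difference was -0.47 with a standard error of 0.30 (limma adjusted p = 0.906), and it was -0.23 without control replicate 2.

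Inhba encodes the beta A subunit of activin A. It had 190, 200 and 163 normalised counts in siRNLTR12-int replicates 1 to 3, against 177, 256, 140 and 108 in control replicates 1 to 4. All 3 siRNLTR12-int libraries lay inside the control range. The log2 difference was 0.18 with a standard error of 0.30 (limma adjusted p = 0.983), and it was -0.01 without control replicate 4.

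**Figure D2:**
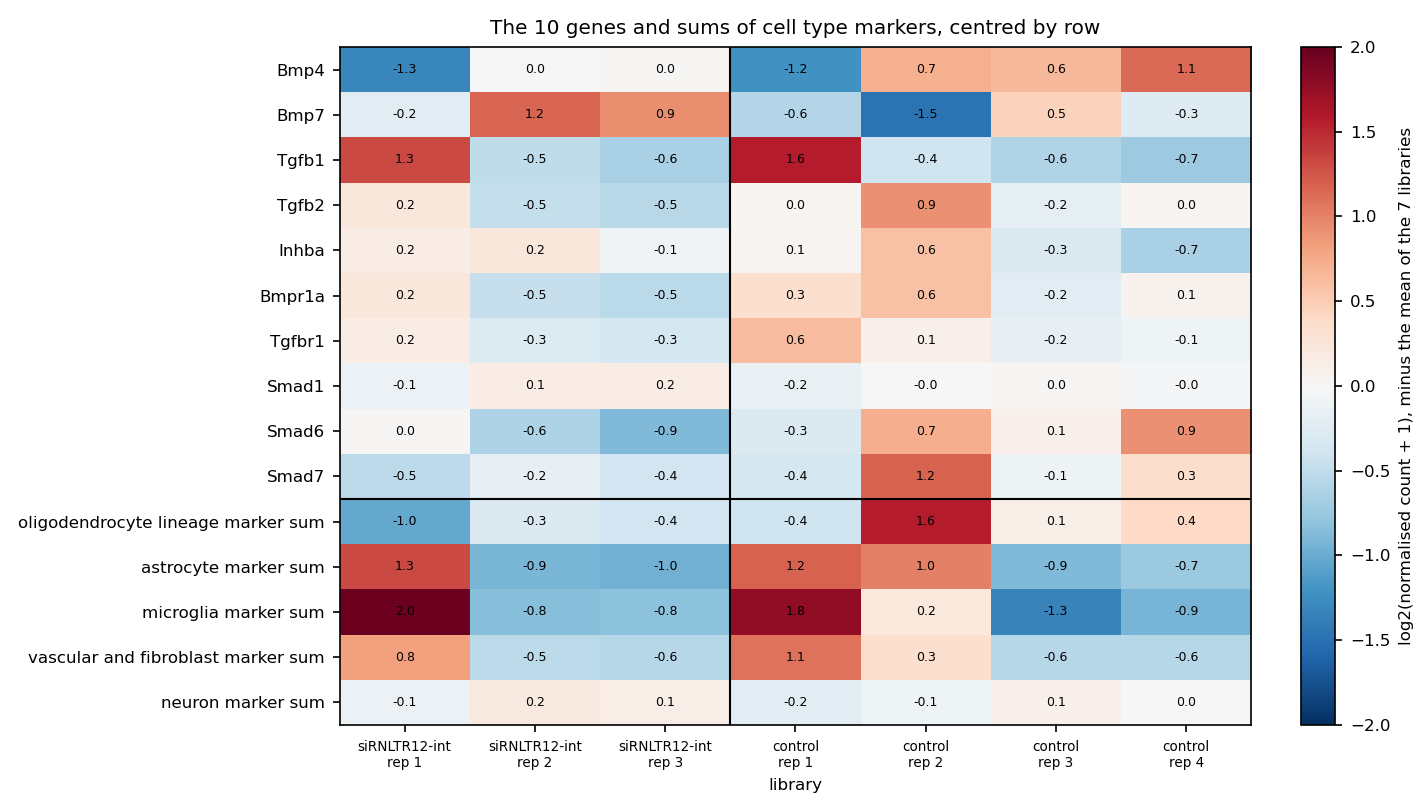
Heat map of log2(normalised count + 1) minus the mean of the 7 libraries for the 10 genes (upper rows) and for sums of cell type markers (lower rows), with siRNLTR12-int libraries left of control libraries. Tgfb1 and the microglia sum are both high in replicate 1 of each group, and Bmp4 is low there.

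Among the receptors, Bmpr1a, a type I receptor for BMPs, had 15034, 9347 and 8904 normalised counts in siRNLTR12-int replicates 1 to 3, against 15997, 19357, 11160 and 13559 in control replicates 1 to 4. Replicate 1 of the siRNLTR12-int group exceeded control replicates 3 and 4, while the other 2 siRNLTR12-int libraries were below every control. The means were 11095 ± 3418 (SD, n = 3) in siRNLTR12-int libraries and 15018 ± 3502 (SD, n = 4) in controls, a log2 difference of -0.45 with a standard error of 0.25 (limma adjusted p = 0.875). Bmpr1a was higher in the libraries rich in astrocyte markers within each group, as were Tgfb1, Tgfb2 and Tgfbr1, while Bmp7 was lower in them. The part of astrocyte RNA in this was not tested.

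Tgfbr1, the type I receptor for TGF-beta, had 3356, 2496 and 2371 normalised counts in siRNLTR12-int replicates 1 to 3, against 4645, 3229, 2689 and 2833 in control replicates 1 to 4. It shared the layout of Bmpr1a, with siRNLTR12-int replicates 2 and 3 below every control and replicate 1 above 3 of the 4 controls. The log2 difference was -0.27 with a standard error of 0.22 (limma adjusted p = 0.935), and it was -0.10 without control replicate 1 and -0.43 without siRNLTR12-int replicate 1.

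Of the Smads, Smad1, the BMP-specific signal transducer, varied little: it had 1823, 2190 and 2200 normalised counts in siRNLTR12-int replicates 1 to 3, against 1783, 1963, 2020 and 1923 in control replicates 1 to 4. Its log2 difference of 0.10 had a standard error of 0.10 (limma adjusted p = 0.964), and the groups overlapped.

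Smad6, the inhibitory Smad that acts mainly on BMP signals, had 105, 67.1 and 55.6 normalised counts in siRNLTR12-int replicates 1 to 3, against 84.2, 172, 111 and 195 in control replicates 1 to 4. Only siRNLTR12-int replicate 1 and control replicate 1 broke the order, since replicates 2 and 3 of the siRNLTR12-int group were below all controls. Means were 75.9 ± 25.9 (SD, n = 3) in siRNLTR12-int libraries and 141 ± 51.7 (SD, n = 4) in controls. The log2 difference was -0.85 with a standard error of 0.36 (limma adjusted p = 0.791), the smallest p of the 10, and the ratio was 0.553. In the authors' deposited table it was -0.88 (DESeq2 adjusted p = 0.527). With libraries weighted by their scatter around the fitted values (limma array weights) Smad6 passed, at -1.28 and an adjusted p of 0.0363, in a fit that called 4.6% of genes. These weights came from the same expression values and not from a measure of RNA quality.

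Smad7, the inhibitory Smad of both branches, had 661, 853 and 735 normalised counts in siRNLTR12-int replicates 1 to 3, against 744, 2160, 893 and 1215 in control replicates 1 to 4. Control replicate 1 lay between the siRNLTR12-int libraries, and control replicate 2 was the highest of all. Means were 750 ± 97.2 (SD, n = 3) in siRNLTR12-int libraries and 1253 ± 635 (SD, n = 4) in controls. The log2 difference was -0.62 with a standard error of 0.35 (limma adjusted p = 0.875), and it was -0.32 without control replicate 2.

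The start region of Smad7 is shown because, of the 8 members with a RefSeq window, it held the most motif matches. Capitals mark 2 copies of GGCGCC and 3 copies of GCCGNCGC on either strand, with 1 copy of each overlapping (RefSeq, GRCr8, chr18:71263258-71263557, plus strand).
Smad7: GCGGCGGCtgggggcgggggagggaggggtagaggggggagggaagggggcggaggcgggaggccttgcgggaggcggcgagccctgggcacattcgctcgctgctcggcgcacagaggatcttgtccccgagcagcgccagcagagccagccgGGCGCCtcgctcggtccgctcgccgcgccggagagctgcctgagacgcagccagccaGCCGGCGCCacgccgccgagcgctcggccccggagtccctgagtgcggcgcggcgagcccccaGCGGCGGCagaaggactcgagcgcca
GGCGCC was found in 11.02% and GCCGNCGC in 9.34% of 33469 windows of the same length, and 77.7% of the bases of the Smad7 window were G or C, so GC-rich letters are frequent in it. Tgfbr1 held 1 copy of each motif and Tgfb2 held 1 copy of GCCGNCGC. No match was found in the windows of Bmp4, Bmpr1a, Smad1, Tgfb1 and Inhba, and the palindrome GTCTAGAC, present in 0.197% of all windows, was in none of the 8.

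In the 4 libraries on the low side of the astrocyte split, more of the 10 genes had groups apart than over all libraries, as did genes at large. Genes apart over all 7 libraries stay apart in these 4, and fewer libraries separate more easily. The count could therefore not fall, and its rise says nothing about the astrocyte split. There, siRNLTR12-int replicates 2 and 3 lay on one side of control replicates 3 and 4 in 9 of 10 genes, against 56.4% of all genes tested, and Tgfb1 was the exception. Higher values were seen for Bmp7, Smad1 and Inhba, and lower ones for Bmp4, Bmpr1a, Smad6, Smad7, Tgfb2 and Tgfbr1. In a limma fit of these 4 libraries Bmp4 differed by -0.87 with a standard error of 0.15 (adjusted p = 0.0211) and Tgfb2 by -0.44 with a standard error of 0.10 (adjusted p = 0.0414), so 2 of 10 genes passed where 7.88% of genes did. Bmp7 differed by 0.94, Bmpr1a by -0.43 and Smad6 by -1.26 in that fit, just short of the threshold (limma adjusted p = 0.0569, 0.0514 and 0.0514). The split was made from the marker levels of these same libraries, and each group has 2 libraries in this fit.

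Among the 3 libraries high in astrocyte markers there is 1 siRNLTR12-int library, so no test was made. Its value lay below both controls for Bmp4, Bmpr1a and Smad7 and above both for Bmp7. These 4 genes were thus apart in the same direction on both sides of the split, 4 of 10 genes against 25.7% of genes tested, a count read after the values were seen. Their log2 differences on the low and the high side were -0.87 and -1.06 for Bmp4, 0.94 and 0.80 for Bmp7, -0.43 and -0.23 for Bmpr1a, and -0.40 and -0.94 for Smad7. The high-side differences came mostly from control replicate 2. Bmp4 was at 1432 in siRNLTR12-int replicate 1, against 1538 and 5812 in control replicates 1 and 2, and Smad7 at 661 against 744 and 2160. Control replicate 2 also differed from the other libraries of the high side in Sox10 (29794 against 8037 and 8318). The part of lineage content in this was not tested. With the split as a block no member passed (limma), and 2, Bmp7 and Bmpr1a, had an unadjusted p under 0.05.

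The profiles most like those of Smad6 and Bmp7, the 2 members with the smallest limma p, were sought among 12002 named genes by the root mean square difference of centred log2 values over the 7 libraries. Nearest to Smad6 were Cpt1b, a carnitine palmitoyltransferase (0.16), Sh3tc2, a protein known from peripheral myelin (0.17), and Plekha6 (0.20). Plekha6 had 3132, 2231 and 2138 normalised counts in siRNLTR12-int replicates 1 to 3, against 2830, 5165, 3048 and 4714 in control replicates 1 to 4, with the same low control replicate 1 as Smad6. Nearest to Bmp7 were Sfrp4, a secreted Wnt antagonist (0.12), Disc1 (0.14) and Nfatc2, a calcium-regulated transcription factor (0.16). Sfrp4 had 108, 238 and 215 normalised counts in siRNLTR12-int replicates 1 to 3, against 74.6, 45.7, 188 and 101 in control replicates 1 to 4.

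Beyond the 10 genes, 9 lists of the wider pathway held 123 genes of the table, of which 107 were tested, and limma called none of them. Groups did not overlap in 9 of the 107 in the higher direction, where the background was 4.09%, and in 6 in the lower direction, where it was 3.59%. The lists share members with each other and with the 10 genes, and they were read by counts and medians without a test.

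Of 7 BMP ligands tested, 3 differences were positive and 4 negative, with a median of -0.12, and no groups were apart. The 13 other ligands had a median of 0.02, with Gdf15, a stress-induced cytokine of this superfamily, higher in every siRNLTR12-int library. Gdf15 had 1436, 876 and 762 normalised counts in siRNLTR12-int replicates 1 to 3, against 505, 255, 190 and 202 in control replicates 1 to 4, and rose by 1.83 per the authors' deposited table, where DESeq2 gave an adjusted p of 0.0074. Limma did not call Gdf15 (adjusted p = 0.647). Gdf11, a relative of myostatin, had 1987, 1777 and 1763 normalised counts in siRNLTR12-int replicates 1 to 3, against 2303, 2919, 2159 and 2760 in control replicates 1 to 4, a log2 difference of -0.45 (limma adjusted p = 0.665). Amh and Gdf3 were also below all controls, but at means of 23.7 and 10.3 normalised counts in siRNLTR12-int libraries and 49.4 and 18.1 in controls.

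The 17 receptors and co-receptors had a median of 0.01, and the only one with groups apart was Tgfbr3, the betaglycan co-receptor that presents TGF-beta2. Tgfbr3, which was named after its values were seen, had 1632, 1314 and 1273 normalised counts in siRNLTR12-int replicates 1 to 3, against 1120, 590, 1123 and 1063 in control replicates 1 to 4 (log2 0.57, limma adjusted p = 0.796). All 6 receptor-regulated and common Smads had positive differences, with a median of 0.13. Smad3, which carries TGF-beta and activin signals, had 1948, 1825 and 1754 normalised counts in siRNLTR12-int replicates 1 to 3, against 1652, 1067, 1409 and 1355 in control replicates 1 to 4. Its log2 difference of 0.44 had a standard error of 0.15 (limma adjusted p = 0.712), and the groups were apart. Smad5, the member of that list with the highest mean, differed by 0.03.

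The 12 inhibitory Smads and intracellular brakes had 5 positive and 7 negative differences, with a median of -0.03. Pmepa1, a membrane adaptor that sequesters receptor-regulated Smads, had 304, 235 and 275 normalised counts in siRNLTR12-int replicates 1 to 3, against 441, 470, 357 and 452 in control replicates 1 to 4. Per the authors' deposited table it fell by 0.66, with a DESeq2 adjusted p of 0.0369, while limma did not call it (adjusted p = 0.647). Skil, a nuclear co-repressor of Smads, had 1272, 1162 and 1083 normalised counts in siRNLTR12-int replicates 1 to 3, against 1752, 1836, 1388 and 1845 in control replicates 1 to 4, a log2 difference of -0.53 (limma adjusted p = 0.647). Both genes had groups that did not overlap, as had the ubiquitin ligase gene Smurf1 (lower) and Fkbp1a, which encodes a protein that holds type I receptors inactive (higher), and Smurf1 was named after its values were seen. Tgif1, a homeobox co-repressor, pointed the other way at 0.99 (limma adjusted p = 0.772), with control replicate 1 inside the siRNLTR12-int range.

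The 14 extracellular antagonists had a median of 0.02. Nog, which encodes the BMP-binding antagonist noggin, averaged 413 ± 91.5 (SD, n = 3) normalised counts in siRNLTR12-int libraries and 575 ± 102 (SD, n = 4) in controls (log2 -0.48, limma adjusted p = 0.784). Crim1, the antagonist with the highest mean, differed by 0.14. Among 17 genes for latency, storage and activation of TGF-beta 12 differences were positive, with a median of 0.15, which was -0.014 without siRNLTR12-int replicate 1. Ltbp1, a latent TGF-beta binding protein, averaged 1221 ± 120 (SD, n = 3) in siRNLTR12-int libraries and 696 ± 312 (SD, n = 4) in controls (log2 0.90, limma adjusted p = 0.712). Thbs1, the thrombospondin that can activate latent TGF-beta, differed by 0.96, and Itgav, the integrin alpha V subunit, by 0.60 (limma adjusted p = 0.712 for both). Their groups overlapped.

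**Figure D3:**
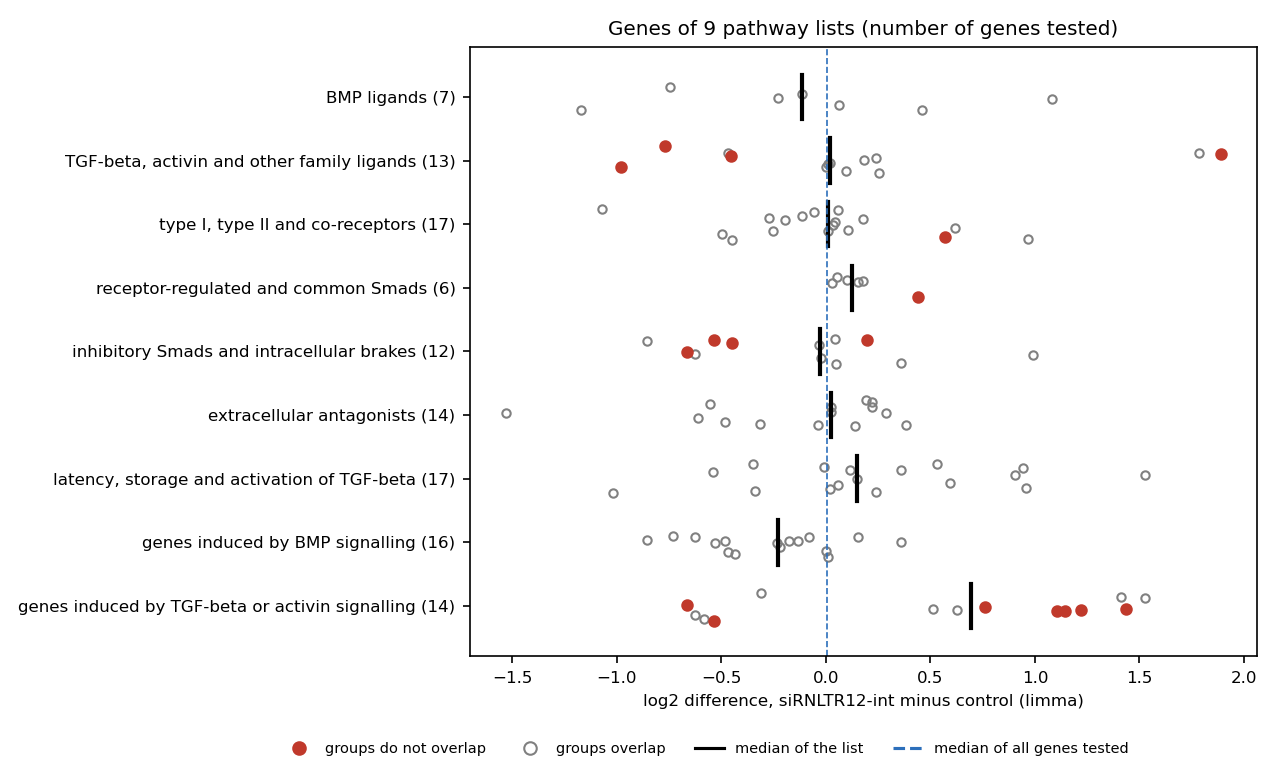
Log2 difference (siRNLTR12-int minus control) of each tested gene in 9 pathway lists, with the number tested in brackets, filled points for genes whose groups do not overlap, a bar at the list's median and a dashed line at the median of all genes tested (0.01). The genes induced by TGF-beta or activin lie mostly to the right, with a median of 0.70, and the genes induced by BMP signalling to the left, with a median of -0.23.

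The genes known to be induced by each branch had medians on opposite sides of 0. Of 16 genes induced by BMP signalling, 12 had negative differences and 4 positive ones, with a median of -0.23 and 0 genes whose groups were apart. That median ranged from -0.41 (without siRNLTR12-int replicate 1) to -0.12 (without siRNLTR12-int replicate 3) when 1 library was left out. The median centred log2 value of these genes per library ran from -0.35 to 0.32 in siRNLTR12-int libraries and from -0.33 to 0.51 in controls, so the groups overlapped. Smad7 is in the lists of both branches. Id2, a helix-loop-helix inhibitor and the gene of that list with the highest mean, had 12467, 6146 and 6611 normalised counts in siRNLTR12-int replicates 1 to 3, against 11611, 12054, 6262 and 7543 in control replicates 1 to 4, so that it followed the astrocyte split. Of 14 genes induced by TGF-beta or activin, 9 had positive differences and 5 negative ones, with a median of 0.70, and groups were apart in 5 higher genes (4.09% over all genes) and 2 lower ones (3.59% over all genes). The negative ones included the feedback genes Skil (-0.53), Pmepa1 (-0.66) and Smad7 (-0.62), and the 2 lower genes with groups apart were Skil and Pmepa1. The authors' deposited table called 3 of the 14 higher and 1 lower, where it called 0.752% of all genes in either direction. Without control replicate 1 the median of this list was 1.07. This list contains Cdkn1a and other genes already known from these libraries to differ, and many of its members respond to further signals, p53 among them for Cdkn1a, so its counts are not independent evidence of a direction.

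Fn1, which encodes fibronectin, had 12362, 8946 and 9150 normalised counts in siRNLTR12-int replicates 1 to 3, against 6937, 3224, 4411 and 3488 in control replicates 1 to 4. Per the authors' deposited table it rose by 1.17, with a DESeq2 adjusted p of 0.0381. Cdkn2b, the gene of the CDK inhibitor p15, had 1342, 1548 and 1344 normalised counts in siRNLTR12-int replicates 1 to 3, against 792, 499, 745 and 623 in control replicates 1 to 4, and rose by 1.09 in that deposited table of the authors (DESeq2 adjusted p = 0.000428). Cdkn1a rose as well (log2 1.14, DESeq2 adjusted p = 4.9e-06, authors' deposited table). The groups of all 3 genes were apart, but limma passed none of them (adjusted p = 0.647 for each). Snai1, a repressor linked to loss of epithelial features, averaged 81.1 ± 1.43 (SD, n = 3) normalised counts in siRNLTR12-int libraries and 48.9 ± 14.8 (SD, n = 4) in controls. Acta2, named after its values were seen, was the fifth gene of the list above all controls. The 8 vascular and fibroblast markers in the table, Col1a1 of this list among them, summed to 1678 to 4435 in siRNLTR12-int libraries and 1678 to 5289 in controls, so their ranges overlapped, with Cldn5 and Lum at 0 in some libraries.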

How the data were processed

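Per the submitters' processing notes, the authors worked with Salmon and DESeq2 on build Rnor_6.0 (tool versions not given). The authors deposited a signal per gene and library, gene counts divided by 1 size factor per library. Their comparison table holds, per the file headers, for each gene a mean signal, a log2 fold change (siRNLTR12-int over control) and its standard error, a test score, and p-values before and after adjustment. Dividing by the step of a library turned 100% of its values above 0 into whole reads, to within 0.01 of a read, with a wider allowance for the largest values. How reads shared by related genes were divided is not stated in the labels.

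The main test was limma 3.58.1 (empirical Bayes with trend, two-sided) on log2(normalised count + 1) over 18225 genes with a mean of at least 10, in all 7 libraries without covariates, with Benjamini-Hochberg adjustment over all of them. This scale understates changes of low genes. The test was checked on simulated data that held no cell type split, so the check does not show how it behaves on these libraries. Alternatives included count tests of the recovered reads with edgeR (version 4.0.16) and with DESeq2 (version 1.42.0). The 10 members and the lists were chosen with earlier results of these data known. Named genes are the members, list genes with a limma p under 0.05 or an adjusted p under 0.05 in the authors' table, the gene of each list with the highest mean, 4 markers and the nearest profiles, and exceptions are stated. A gene of the lists is not reported here and was left out of their counts and medians. The astrocyte split was placed at the largest gap in the mean log2 level of 10 astrocyte markers. Promoter windows came from RefSeq (GRCr8) and matched 8 of 10 members. Levels are not compared between genes, since no transcript lengths were used.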

Additional observations from a re-analysis of the deposited data

Results flagged for a closer look

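In 3 of the 30 named genes 1 control library stood far from the other 3, by a gap test on normalised counts that flags about 1 group in 20 by chance. Tgfb1 was at 2352 normalised counts in control replicate 1, and Tgif1 was at 1109 in the same library. Tgfb2 was at 5812 in control replicate 2. Control replicate 1 had the highest microglia marker sum of the controls, and control replicate 2 the highest oligodendrocyte lineage sum, and the part of either in these values was not tested.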

How the results depend on the processing

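The 10 members were refitted under 19 alternatives, giving 190 values, of which 179 kept their direction and their side of the threshold, 8 changed sign and 3 passed. These values are not independent. Changing the filter or the variance trend left the log2 differences as they were, so their sign could not turn. The replicate block gave the same differences as leaving out control replicate 4, so its sign changes were counted again there. The values that passed were Bmp4 (-0.87) and Tgfb2 (-0.44) within the 4 libraries low in astrocyte markers, and Smad6 (-1.28) with array weights. Tgfb1 changed sign with array weights (-0.12) and the replicate block (-0.13), and Inhba with the replicate block (-0.011). Leaving out 1 library at a time gave -0.54 to 0.64 for Tgfb1, -0.011 to 0.40 for Inhba, -0.50 to 0.0098 for Id2 and -0.023 to 0.10 for Smad5 (the sign of Id2 and Smad5 turned without siRNLTR12-int replicate 2), and no member passed. Over the other members that range was -1.25 to -0.30 for Bmp4 (lowest without control replicate 1), 0.75 to 1.504 for Bmp7, -1.11 to -0.66 for Smad6, -0.83 to -0.32 for Smad7, -0.69 to -0.31 for Bmpr1a, -0.72 to -0.23 for Tgfb2, -0.43 to -0.10 for Tgfbr1 and 0.058 to 0.19 for Smad1. The value furthest from 0 of Bmp7, Smad6, Bmpr1a, Tgfb2, Tgfbr1 and Smad1 came without siRNLTR12-int replicate 1. Limma called 0 genes (unadjusted p under 0.05 in 606 higher and 543 lower), and edgeR called 0 (unadjusted p under 0.05 in 1178). Calls numbered 858 higher and 557 lower within the 4 low libraries, 456 higher and 383 lower under array weights, and 72 higher and 69 lower by DESeq2, and the cause was not tested. Leaving out 1 library gave 0 to 1 higher and 0 to 1 lower calls, the calls coming without siRNLTR12-int replicate 2 or control replicate 4. The median of the TGF-beta, activin and other ligands was 0.25 in those 4 libraries. Leave-one-out medians were -0.20 to 0.0014 for the BMP ligands, -0.011 to 0.16 for the other ligands, -0.11 to 0.0080 for the receptors, -0.065 to 0.18 for the antagonists, -0.014 to 0.29 for latency, storage and activation, -0.23 to 0.034 for the inhibitory Smads and brakes and 0.53 to 1.07 for genes induced by TGF-beta or activin. Members with groups apart numbered 9 in those 4 libraries (56.4% of all genes) and 4 on both sides of the split (25.7% of all genes). Neither count could fall below the count over all libraries. Whether equal replicate numbers pair the libraries could not be told. Deviations from the group means correlated across genes at 0.75, -0.19 and 0.63 for replicates 1, 2 and 3. Replicate 2 lay on different sides of the astrocyte split in the siRNLTR12-int and control groups, so its value cannot decide this. The replicate block called 0 genes, as did the main fit. The counts of reads limit Smad6, at 55.6 to 195 normalised counts, most among the members.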
